A study of Mus musculus with 186 samples.

Results

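The 9 genes described here are Ifi27, Ifi27l2a and Ifi27l2b, which form a family of interferon-inducible proteins in neighbouring positions on mouse chromosome 12, and Ifit1, Ifit3, Isg15, Irf7, Bst2 and Oasl2, which are commonly read as a transcriptional record of interferon signalling. They are 9 of the 28338 genes in the table. Ifi27l2a and Ifi27l2b were chosen by their measured lower expression in the striatum of Akap11 -/- mice, so for these 2 genes the striatal knockout values are a description without a test. The other 7 were chosen by function, and the question put to them is whether the wider interferon programme is also lower in that tissue. RNA was sequenced from 6 brain regions, striatum, thalamus, substantia nigra, hippocampus, and the prefrontal and somatosensory cortex. The mice were wild type (WT), Akap11 +/- (HET) or Akap11 -/- (KO), at 4 or 12 weeks of age. These 36 groups held 5 or 6 libraries each, 186 in all, with 96 at 4 weeks and 90 at 12 weeks. Akap11 encodes an anchoring protein that tethers protein kinase A, and the labels give no strain or sex, nor the design of the mutant allele.

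Interferons are secreted proteins that bind receptors on the cell surface and signal through Janus kinases to transcription factors in the nucleus. Type I interferon leads to binding at the interferon-stimulated response element in the promoters of its target genes. In brain tissue without infection, a low tonic level of this programme is detectable, and microglia, endothelial cells and cells of the meninges are among its known sources.

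Ifi27 lies on GRCm38 at chr12:103434211-103440239 on the plus strand, Ifi27l2a at chr12:103442167-103443680 on the minus strand and Ifi27l2b at chr12:103450898-103457223 on the minus strand, by GENCODE M21. The sources used here do not say how reads common to the latter pair were divided. The run of bases they share is shown because both counts depend on it. The longest identical run of their GENCODE transcripts is 51 bases within the coding sequence, at positions 156 to 206 of the Ifi27l2a transcript and 173 to 223 of the Ifi27l2b transcript.
shared run: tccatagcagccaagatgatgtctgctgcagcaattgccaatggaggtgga
The Ifi27l2a transcript has 4 exons and a coding sequence of 270 bases, and that of Ifi27l2b has 7 exons and a coding sequence of 849 bases. Of 433 windows of 31 bases in Ifi27l2a, 26 (6.005%) also occurred in Ifi27l2b, and neither gene shared such a window with Ifi27. RefSeq extends Ifi27l2a across Ifi27 on the opposite strand, and the sources used here do not say whether the counting used the strand. Ifit3 shared 61.808% of its windows with its neighbour Ifit3b, so its counts are uncertain where the counting program split reads between those copies. Irf7 overlaps Phrf1 on the opposite strand.

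Promoter sequences from RefSeq (GRCm38.p6, 250 bases before the start given with the promoter) were held for 6 of the 9 members, all but the 3 Ifi27 family genes. The windows of Irf7 and Oasl2 lie partly, and that of Ifit3 wholly, inside the RefSeq span of the gene. The letters searched, on both strands and with overlapping matches counted, were those of the core of the interferon-stimulated response element, GAAANNGAAA. At least 1 match stood in 978 of 32851 promoters of the same length (2.98%), and in 4 of the 6 members. Ifit1, Isg15 and Bst2 are printed because they show the 2 strands and the overlapping arrangement, with the matched bases in capitals.
Ifit1, chr19:34640639-34640888, plus strand: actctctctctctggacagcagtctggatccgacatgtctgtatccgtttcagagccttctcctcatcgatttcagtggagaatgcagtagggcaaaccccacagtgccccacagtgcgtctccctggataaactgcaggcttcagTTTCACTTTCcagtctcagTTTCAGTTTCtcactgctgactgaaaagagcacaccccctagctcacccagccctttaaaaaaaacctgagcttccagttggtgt
Isg15, chr4:156200819-156201068, minus strand: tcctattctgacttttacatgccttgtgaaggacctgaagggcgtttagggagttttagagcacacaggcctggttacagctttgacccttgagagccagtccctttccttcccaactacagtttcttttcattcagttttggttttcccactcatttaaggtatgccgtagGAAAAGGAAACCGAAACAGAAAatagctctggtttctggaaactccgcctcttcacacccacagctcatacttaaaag
Bst2, chr8:71537473-71537722, minus strand: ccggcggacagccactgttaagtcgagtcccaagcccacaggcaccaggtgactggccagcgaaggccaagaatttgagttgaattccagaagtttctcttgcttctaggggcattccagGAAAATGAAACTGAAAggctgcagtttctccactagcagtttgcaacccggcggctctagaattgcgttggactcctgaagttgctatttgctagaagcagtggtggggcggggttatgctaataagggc
Ifit1 held 2 separate matches, both read on the opposite strand, and Isg15 held 3 that overlap in a single run. Bst2 held 2 overlapping matches, Ifit3 held 2, and these letters did not occur in the windows of Irf7 and Oasl2. Among the type I interferon effector genes listed for this work, 21 of 45 promoters held a match. A match describes the letters only.

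Library totals of the expected counts ran from 20794652 to 73344445. Akap11 was lower in every KO library than in every WT or HET library of its region and age in all 12 sets, with 5.1% to 8.01% of the WT mean left. HET lay below WT in 11 of the 12, and the exception was the nigral library labelled WT 92 at 4 weeks. Several 4-week libraries stood apart from their labelled region. In striatum, the summed level of 10 cortical and hippocampal excitatory neuron markers was 1479 CPM (counts scaled to 1000000 per library) in KO 51, 1988 in KO 161, 996 in KO 163 and 1070 in WT 92. The remaining KO and WT libraries held 47.5 to 86.2 CPM. In thalamus, WT 913, WT 914 and WT 23 had low thalamic or high cortical markers, and in substantia nigra WT 92, WT 42, KO 44 and KO 91 did, with low dopamine neuron markers or the Akap11 mismatch. The 4-week changes of the members in KO striatum are therefore given with and without these libraries, as are other 4-week results where stated. Values at 4 weeks with no such statement include them. The labels do not say that libraries of a group come from separate animals, so p-values measure the spread between these samples. In bulk tissue, fewer cells of a type and less RNA per cell cannot be told apart.

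In KO striatum both chosen genes were near the limit of detection, while their HET levels were close to WT. Ifi27l2a encodes a small membrane-associated protein of the Ifi27 family. At 4 weeks its level in the 5 WT striatal libraries was 0.869, 0.348, 0.575, 0.609 and 0.442 CPM, from 14 to 38 counts each, and in the 5 KO libraries it was 0.0714, 0.0996, 0.084, 0.163 and 0.168 CPM, from 2 to 6 counts each. At 12 weeks the WT libraries held 0.652, 1.04, 0.674, 1.43 and 1.01 CPM, and the KO libraries 0.266, 0.15, 0.156, 0.215 and 0.132 CPM. The highest KO library lay under the lowest WT library at either age. The KO mean was 0.117 ± 0.0452 against 0.569 ± 0.198 CPM in WT at 4 weeks (SD, n = 5 each), or 20.6% of WT, and 0.184 ± 0.0555 against 0.961 ± 0.318 CPM at 12 weeks, or 19.2%. On the log2 scale the fitted differences were -2.22 ± 0.34 (standard error, SE) and -2.37 ± 0.29, and at 4 weeks the difference was -2.32 ± 0.50 over the 2 KO and 4 WT libraries that did not stand apart.

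Ifi27l2b, its neighbour, went further down. Its 4-week WT libraries held 0.714, 0.478, 0.711, 0.711 and 0.695 CPM, from 22 to 47 counts each. Of the 5 KO libraries, 3 had no count and the other 2 had 2 counts each, at 0.0714 and 0.0561 CPM. At 12 weeks WT held 1.68, 2.34, 0.938, 1.04 and 1.6 CPM, and KO 0.0799, 0.12, 0.134, 0.215 and 0.132 CPM, from 3 to 8 counts each. No KO library came near a WT library. A count of 0 allows up to 3 counts, which is between 0.0397 and 0.147 CPM over the depths of these libraries, covering counting error only, so low KO values are at or close to that limit. The KO mean was 3.85% of WT at 4 weeks and 8.96% at 12 weeks. The fitted log2 difference was -4.61 ± 0.50 at 4 weeks, -3.44 ± 0.45 there without the libraries that stood apart, and -3.45 ± 0.33 at 12 weeks. With so few counts, single libraries moved the 4-week value, to -5.25 without KO 12, -5.15 without KO 932 and -4.28 without KO 163.

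**Figure D1:**
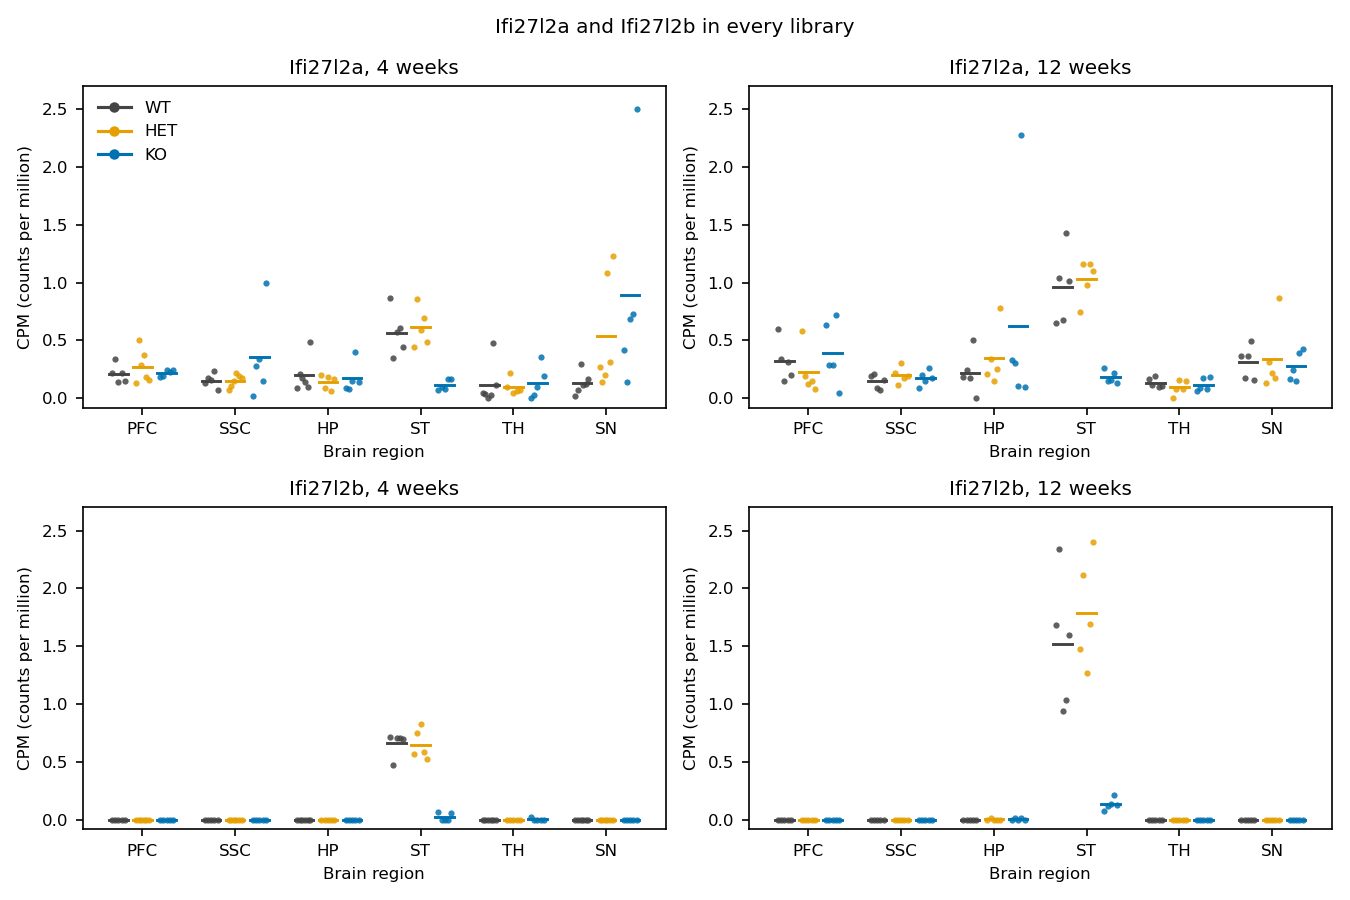
Level of Ifi27l2a (top) and Ifi27l2b (bottom) in CPM (y axis) by brain region (x axis) and genotype at 4 and 12 weeks, with each point a library and each bar a group mean; TH is thalamus, SN substantia nigra, ST striatum, HP hippocampus, and PFC and SSC the prefrontal and somatosensory cortex. Striatal KO libraries lie between 0 and 0.266 CPM, under every striatal WT library of the same gene and age.

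The heterozygote was not used to choose these genes, although the WT libraries it is compared with were. In HET striatum, Ifi27l2a was at 0.447, 0.856, 0.591, 0.694 and 0.491 CPM at 4 weeks and at 0.75, 1.16, 0.98, 1.16 and 1.1 CPM at 12 weeks. Ifi27l2b was at 0.565, 0.749, 0.828, 0.583 and 0.524 CPM at 4 weeks and at 1.48, 2.12, 1.27, 1.69 and 2.4 CPM at 12 weeks. The HET and WT libraries overlapped for either gene at either age. The log2 difference from WT was 0.11 ± 0.28 and 0.10 ± 0.26 for Ifi27l2a and -0.02 ± 0.32 and 0.24 ± 0.27 for Ifi27l2b (edgeR adjusted p = 1 in all 4 cases). The HET means were 108% and 107% of WT for Ifi27l2a, and 98.2% and 118% for Ifi27l2b. Without the libraries that stood apart, the 4-week HET differences were -0.03 ± 0.30 for Ifi27l2a and -0.12 ± 0.23 for Ifi27l2b.

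Outside striatum the pair behaved unlike each other. Ifi27l2b was at 0 in 152 of 156 libraries of the other 5 regions and had 1 count in each of the other 4, and in the genotype comparisons it passed the filter on low counts in striatum alone. Ifi27l2a was present at a low level in most regions, at 0.262 CPM over the counts of these libraries pooled, at 0 in 4 of the 156 and at 2.5 CPM in the highest.

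Turning to the 7 genes chosen by function, none passed the test in KO striatum at either age, while 3.35% of all genes tested there were called at 4 weeks (516 of 15425) and 4.42% at 12 weeks (691 of 15622). A gene was called at a Benjamini-Hochberg adjusted p under 0.05. Ifi27, which encodes an interferon-inducible membrane protein, was the most abundant member. Its 4-week WT libraries held 11.4, 13, 10.2, 12.7 and 11.7 CPM, and its KO libraries 9.21, 12.9, 16.3, 13.9 and 9.57 CPM. At 12 weeks WT held 15.7, 14.4, 15.4, 13.5 and 13.1 CPM, and KO 11.4, 14.0, 11.3, 13.1 and 13.3 CPM. The groups overlapped at both ages, and the KO libraries spread to both sides of WT at 4 weeks. The log2 difference was 0.07 ± 0.15 at 4 weeks (edgeR adjusted p = 0.869) and -0.20 ± 0.08 at 12 weeks (unadjusted p = 0.0339, edgeR adjusted p = 0.259). Without the libraries that stood apart, the 4-week difference was -0.31 ± 0.14 (edgeR adjusted p = 0.269).

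Isg15 encodes a ubiquitin-like protein that is conjugated to other proteins after interferon exposure. At 4 weeks the WT striatal libraries held 0.528, 0.457, 0.665, 0.558 and 0.758 CPM and the KO libraries 0.107, 0.465, 0.392, 0.65 and 0.477 CPM. At 12 weeks WT held 0.954, 0.79, 0.674, 0.686 and 0.535 CPM and KO 0.639, 0.511, 0.581, 0.671 and 0.55 CPM. The lowest KO library at 4 weeks, KO 12, had 3 counts, and it and the KO library at 0.392 CPM lay under every WT library. The other KO libraries at 4 weeks lay within the WT range. The log2 difference was -0.49 ± 0.42 at 4 weeks (edgeR adjusted p = 0.6), -1.07 ± 0.64 there without the libraries that stood apart (adjusted p = 0.414), and -0.31 ± 0.24 at 12 weeks (adjusted p = 0.605). Bst2 encodes tetherin, which holds budding virus particles at the cell surface. Its 4-week WT libraries held 0.683, 1.0, 0.847, 1.19 and 1.58 CPM and its KO libraries 0.464, 0.598, 1.01, 1.38 and 1.04 CPM. At 12 weeks WT held 1.28, 1.64, 0.997, 1.4 and 0.944 CPM and KO 0.772, 0.902, 0.693, 1.4 and 1.14 CPM. The groups overlapped, with the 2 lowest libraries at 4 weeks and the 3 lowest at 12 weeks being KO. The log2 difference was -0.23 ± 0.29 (edgeR adjusted p = 0.744) and -0.35 ± 0.29 (adjusted p = 0.63).

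Ifit1 and Ifit3 encode tetratricopeptide repeat proteins, of which Ifit1 binds foreign RNA caps. Ifit1 ranged over 0.621 to 1.68 CPM in WT and 0.814 to 1.4 in KO at 4 weeks, and over 0.909 to 1.49 and 1.01 to 1.56 at 12 weeks, with log2 differences of 0.01 ± 0.30 and -0.01 ± 0.22 (edgeR adjusted p = 0.992 at both ages). Ifit3 ranged over 2.04 to 4.49 CPM in WT and 2.71 to 4.2 in KO at 4 weeks, and over 4.63 to 7.68 and 4.36 to 6.9 at 12 weeks, with log2 differences of 0.25 ± 0.22 (adjusted p = 0.614) and -0.26 ± 0.16 (adjusted p = 0.489). The ranges of KO and WT overlapped nearly throughout. Irf7 encodes the transcription factor that amplifies type I interferon production. It ranged over 0.931 to 1.78 CPM in WT and 0.714 to 1.76 in KO at 4 weeks, and over 0.881 to 1.21 and 0.612 to 1.91 at 12 weeks, with log2 differences of -0.08 ± 0.27 (edgeR adjusted p = 0.922) and 0.02 ± 0.35 (adjusted p = 0.99). Oasl2 encodes an oligoadenylate synthetase-like protein. It ranged over 1.29 to 2.67 CPM in WT and 1.26 to 2.19 in KO at 4 weeks, and over 1.95 to 2.37 and 1.46 to 2.28 at 12 weeks, with log2 differences of -0.06 ± 0.24 (edgeR adjusted p = 0.936) and -0.12 ± 0.20 (adjusted p = 0.854). None of these 4 genes separated KO from WT libraries at either age. Without the 4-week libraries that stood apart, the differences were -0.27 ± 0.47 for Ifit1, -0.05 ± 0.30 for Ifit3, -0.57 ± 0.38 for Irf7, -0.51 ± 0.40 for Bst2 and -0.36 ± 0.33 for Oasl2 (edgeR adjusted p = 0.802, 0.949, 0.46, 0.542 and 0.611). All 7 of these members were then below 0, with 2 KO libraries in the comparison and none called.

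**Figure D2:**
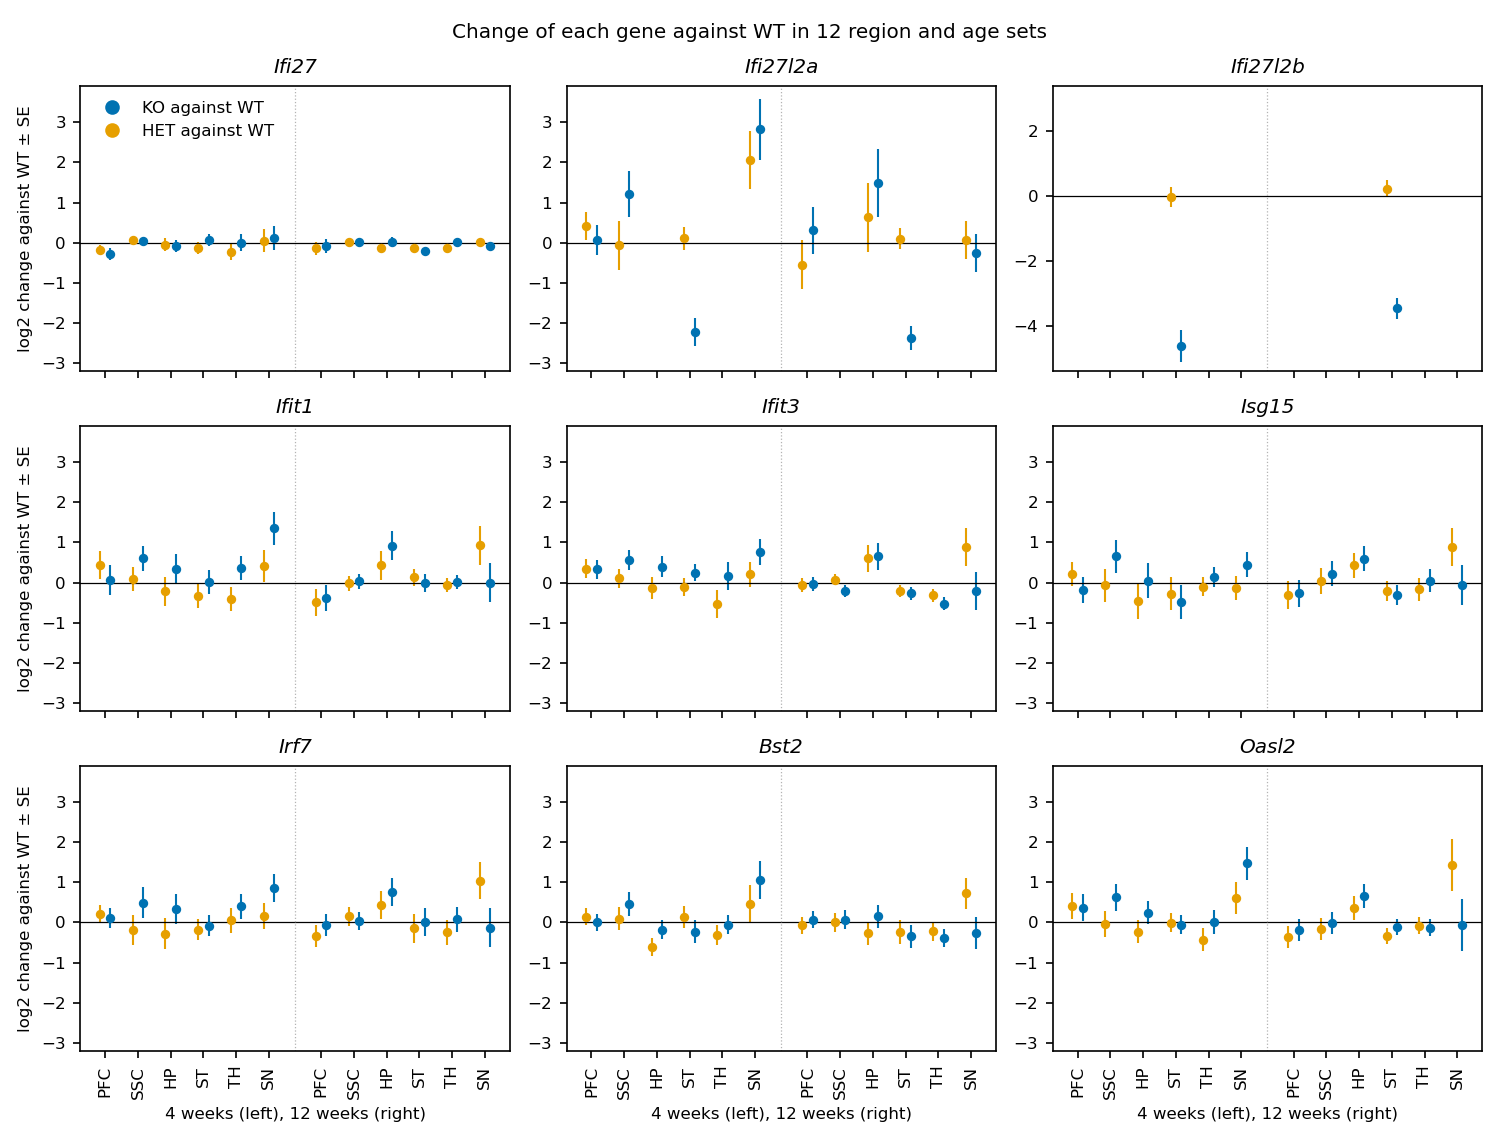
Log2 difference from WT (y axis) of each member by region and age (x axis), KO and HET side by side, with bars of 1 SE; the panel of Ifi27l2b has its own y axis and only striatal values. In KO striatum Ifi27l2a and Ifi27l2b lie at -2.22 or lower, while the other 7 lie between -0.49 and 0.25.

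The striatal KO effect was also compared with the mean KO effect of the other 5 regions. In that test 3.31% of all genes tested were called, and of the 7 members chosen by function 0 of 14 tests were called by edgeR, 0 at an unadjusted p under 0.05 and 0 by DESeq2. The smallest adjusted p was 0.528, for Isg15 at 4 weeks, whose log2 difference of effects was -0.70 ± 0.44. At 12 weeks it was 0.71, for Ifi27, at -0.18 ± 0.14.

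The wider programme was read from 7 lists of 164 interferon genes that leave out the members, of which 157 were in the table. In KO striatum at 4 weeks 113 of them were tested, 2 rose, 0 fell, and the median log2 difference was 0.01. Of the 113, 55 were below 0 (48.7%, against 50.4% of all genes). At 12 weeks 112 were tested, 1 rose, 0 fell, the median was -0.01 against 0.01 over all genes, and 58 were below 0 (51.8%, against 48.4%). Over all genes, 3.35% were called in KO striatum at 4 weeks and 4.42% at 12 weeks. Beside the 0 that fell by edgeR, 16 and 12 list genes in either direction had an unadjusted p under 0.05, or 14.2% and 10.7%, against 17.9% and 15.9% of all genes. DESeq2 called 6 at 4 weeks, of which Ptpn2 and Tbk1 were lower, and 3 at 12 weeks, of which Jak1 and Tbk1 were lower. The 2 genes that rose at 4 weeks were H2-T22, a non-classical MHC class I gene, and Irf2, a transcription factor that binds interferon response elements. H2-T22 was at 7.79, 7.39, 8.76, 6.57 and 8.61 CPM in WT and 8.46, 10.9, 11.5, 13.1 and 13.2 CPM in KO, so that only KO 12 lay within the WT range. Its log2 difference was 0.54 ± 0.13 (edgeR adjusted p = 0.0274). Irf2 was at 12.4 ± 1.25 CPM in WT and 16.2 ± 1.65 CPM in KO (SD, n = 5 each), a log2 difference of 0.38 ± 0.09 (edgeR adjusted p = 0.0322), and 1 KO library overlapped WT. Neither was called without the libraries that stood apart, at 0.49 (adjusted p = 0.161) and 0.23 (adjusted p = 0.325), nor at 12 weeks, at 0.33 (adjusted p = 0.128) and 0.23 (adjusted p = 0.135). At 12 weeks the gene that rose was Ifngr1, a chain of the interferon-gamma receptor. Its WT libraries held 21.2, 21.8, 18, 23.5 and 20 CPM and its KO libraries 28.7, 23.7, 25.6, 27.8 and 24.8 CPM, with every KO library above every WT library. The log2 difference was 0.32 ± 0.08 (edgeR adjusted p = 0.0312). All 3 calls were lost on leaving out single libraries. H2-T22 was not called without any one of KO 51, KO 163, KO 932, WT 42, WT 142 and WT 914 (edgeR adjusted p between 0.0506 and 0.0768), nor Irf2 without any one of KO 51, KO 161, KO 163, WT 42 and WT 914 (between 0.0611 and 0.0877). Ifngr1 was not called when KO 1, 3, 4 or 5, or WT 1, 3 or 5, was left out (between 0.0508 and 0.0844). With scaling by library totals the adjusted p of H2-T22 and Irf2 was 0.0794 and 0.118, and with KO and WT fitted without HET it was 0.101 and 0.127.

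By role, the signal can be followed from ligand to target. The 21 interferon ligand genes held 147 counts in all 186 libraries together, 4 of them held none, and none passed the filter on low counts. The interferon-induced chemokines were not tested in striatum for the same reason. Of the receptor and signal transduction genes, 18 were tested at 4 weeks with a median of -0.02 and 17 at 12 weeks with a median of -0.03. Jak2, a kinase of the interferon-gamma receptor, was at 66.4 ± 7.07 CPM in WT and 55.1 ± 7.44 in KO at 4 weeks, a log2 difference of -0.28 ± 0.10 that was not called (edgeR adjusted p = 0.157). The 21 genes of nucleic acid sensing, which act upstream of interferon, had medians of -0.07 and 0.03. Mavs, the mitochondrial adaptor of RNA sensing, was at 6.03 ± 0.213 CPM in WT and 7.35 ± 0.62 in KO at 12 weeks (log2 difference 0.28 ± 0.12, edgeR adjusted p = 0.254), with no overlap between the groups. Among the targets, 41 type I interferon effectors had medians of -0.10 and 0.02, with 23 and then 20 below 0. The named effectors with the widest differences went both ways, with Herc6 at 0.80 ± 0.39 and Ifitm3 at -0.43 ± 0.20 at 4 weeks, and Sp100 at -0.42 ± 0.17 and Lgals3bp at 0.30 ± 0.11 at 12 weeks (edgeR adjusted p = 0.289, 0.284, 0.211 and 0.169). The 15 interferon-gamma induced GTPases had medians of 0.01 and -0.05. Of 18 genes of MHC class I presentation, 1 was below 0 at 4 weeks and 9 at 12 weeks, with medians of 0.25 and -0.03. Psmb10, an immunoproteasome subunit, was at 4.73 ± 1.24 CPM in WT and 8.9 ± 4.13 in KO at 4 weeks (log2 difference 0.91 ± 0.27, edgeR adjusted p = 0.0781).

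**Figure D3:**
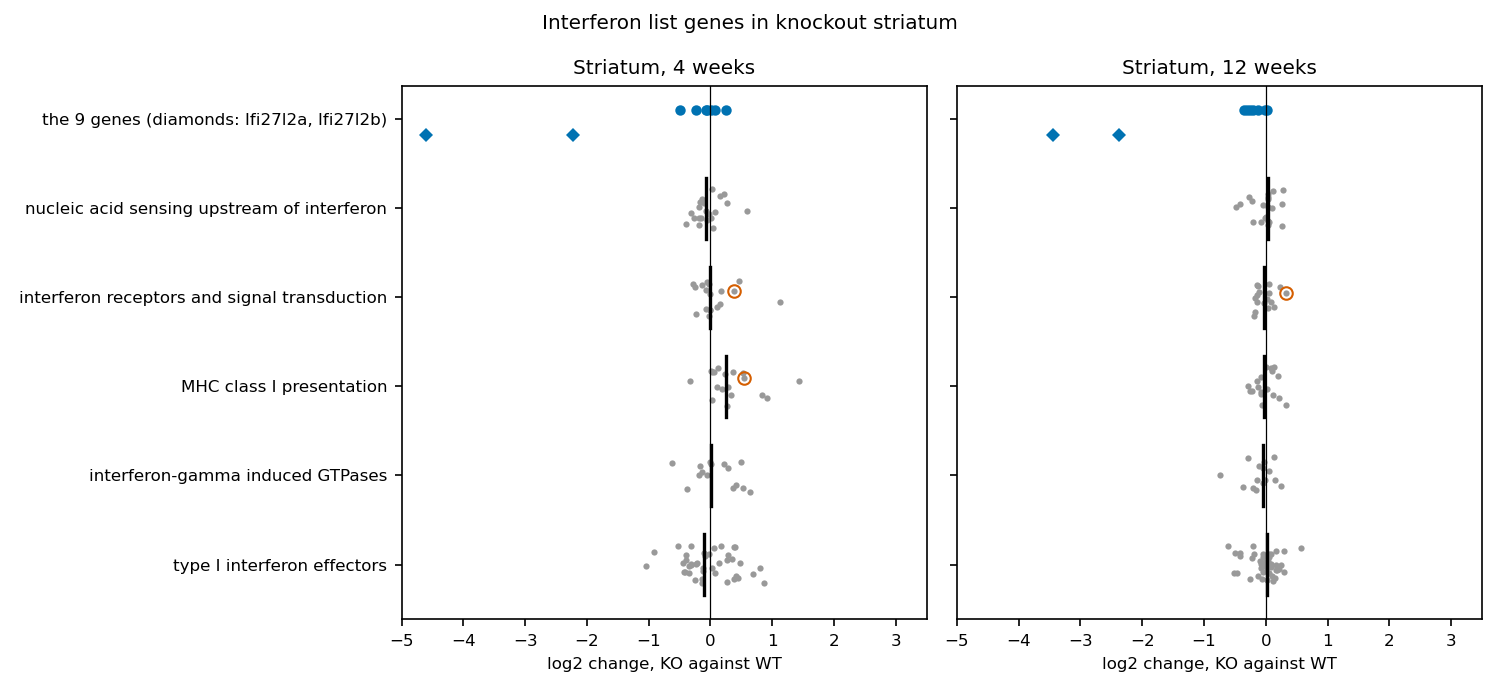
Log2 difference of KO from WT in striatum (x axis) for the tested genes of each interferon list (rows) at 4 and 12 weeks, with called genes ringed and a black bar at each list median; the top row holds the 9 members, with diamonds for Ifi27l2a and Ifi27l2b, and vertical scatter within a row has no meaning. List medians lie between -0.10 and 0.25, and the diamonds lie at -2.22 and below.

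The 4-week list values moved with the libraries that stood apart. Over the 2 KO and 4 WT libraries left without them, the median of 115 list genes was -0.19, 82 were below 0 (71.3%, against 53.9% of all genes) and 1 was called, Ifngr1. The type I effectors then had a median of -0.30, with 34 of 42 below 0. The other 4-week values by role, among them those of MHC class I presentation and Psmb10, include the libraries that stood apart. The part of cortical tissue in the 4-week values was not tested beyond this omission.

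Cell type markers were read beside these values. At 4 weeks the summed level of 14 microglial markers was 396 to 506 CPM in KO striatum and 451 to 585 in WT, 14 of 14 had a lower mean in KO, and C1qa and C1qb fell. At 12 weeks the KO libraries held 464 to 566 CPM and the WT libraries 442 to 541, 7 of 14 were lower and none was called by edgeR. Meningeal fibroblast markers summed to 34.7 to 45.9 CPM in KO and 54.0 to 65.1 in WT at 4 weeks, with 7 of 8 lower and Col1a1 and Igf2 called, and to 21.0 to 32.4 and 27.4 to 35.0 at 12 weeks, with 2 of 8 lower and none called. Perivascular macrophage markers summed to 2.41 to 4.25 CPM in KO and 3.3 to 5.64 in WT at 4 weeks, and to 2.5 to 3.97 and 3.21 to 4.96 at 12 weeks, when Cd163 fell. Of these 6 markers 5 had a lower mean in KO at 4 weeks and 6 at 12 weeks, when the median log2 difference of the 5 tested was -0.44. Of 8 pericyte and smooth muscle markers 7 were lower at 4 weeks and 2 at 12 weeks, and Tagln fell at both ages. At 4 weeks 11 of 12 endothelial, 8 of 8 ependymal, 5 of 8 choroid plexus and 5 of 5 blood markers were lower too. So were 7 of 8 oligodendrocyte and 6 of 8 astrocyte markers, with Aqp4 called. At 12 weeks these counts were 6, 4, 3, 0, 1 and 4. Of 10 cortical and hippocampal excitatory neuron markers 0 were lower at 4 weeks (median 2.02), and of 8 thalamic neuron markers 2. All 4-week marker values here include the libraries that stood apart. Markers of striatal projection neurons, the main neurons of this region, summed to 7764 to 23927 CPM in KO and 12907 to 23161 in WT at 4 weeks, and to 11643 to 14699 and 11862 to 16689 at 12 weeks, when Pde10a and Rgs9 fell. Of these 10 markers 10 had a lower mean in KO at 4 weeks and 9 at 12 weeks. Their median log2 differences were -0.33 and -0.20. At 12 weeks the microglial, perivascular macrophage and meningeal sums of KO overlapped those of WT. The part of these cells in the result was not tested.

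Across the 12 combinations of region and age, 0 of 90 tests of members in KO against WT were called by edgeR, leaving out the striatal values of the chosen pair. The background was 0.644% of all tests over the same comparisons. Of the 90, 13 had an unadjusted p under 0.05, and DESeq2 called 0. In HET, 0 of 94 were called by edgeR against a background of 0.00521%, with 5 at an unadjusted p under 0.05 and 0 called by DESeq2. Of the 13 in KO, 6 came from substantia nigra at 4 weeks, 3 from hippocampus at 12 weeks, 2 from somatosensory cortex at 4 weeks, and 1 each from thalamus and striatum at 12 weeks. In 12-week thalamus, Ifit3 was at 7.95 CPM in WT and 5.57 in KO, a log2 difference of -0.52 ± 0.15 (unadjusted p = 0.00324, edgeR adjusted p = 0.489).

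In substantia nigra at 4 weeks 6 of 8 members tested had an unadjusted p under 0.05, all higher in KO, and none was called by edgeR or DESeq2. Ifi27l2a was at 0.419, 0.138, 0.683, 0.733 and 2.5 CPM in KO, and at 0.0201 to 0.297 CPM in the 6 WT libraries, the middle 2 at 0.116 and 0.121. KO 91 lay inside the WT range, and the highest library was KO 932. The log2 difference was 2.82 ± 0.75 (unadjusted p = 0.00153, edgeR adjusted p = 0.643), and 1.96 without KO 932 (adjusted p = 0.816). Oasl2 was at 5.53, 3.01, 4.49, 8.7 and 19.8 CPM in KO and 2.08 to 4.37 in WT, a log2 difference of 1.47 ± 0.41 (unadjusted p = 0.00244, edgeR adjusted p = 0.643), and 0.86 without KO 932. Ifit1 differed by 1.35 ± 0.41, Bst2 by 1.05 ± 0.47, Irf7 by 0.86 ± 0.35 and Ifit3 by 0.77 ± 0.32, each with an edgeR adjusted p of 0.643. Without KO 932 these were 0.80, 0.53, 0.33 and 0.34. Without the 4 nigral libraries that stood apart, Ifi27l2a differed by 3.65 ± 0.84 (edgeR adjusted p = 0.373). Oasl2, Bst2, Ifit1, Ifit3 and Irf7 then differed by 1.77, 1.53, 1.38, 1.27 and 1.17, none called (edgeR adjusted p between 0.442 and 0.464). The median over 124 list genes was 0.53, with 57 at an unadjusted p under 0.05 against 6.04% of all genes, 16 below 0 and 0 called by edgeR. DESeq2 called 5 list genes there. The list median was 0.40 without KO 932 and 0.65 without the libraries that stood apart. Without KO 932, 35 of 124 list genes had an unadjusted edgeR p under 0.05, against 4.03% of all genes. Without the libraries that stood apart 61 of 130 had, against 9.48%. Markers of meningeal fibroblasts moved with these libraries. They summed to 204, 55, 374, 873 and 362 CPM in KO 44, KO 91, KO 161, KO 163 and KO 932, and to 64.3 to 249 CPM in WT. In HET they reached 1328 in HET 93 and 3162 in HET 941, the 2 HET libraries highest for Ifi27l2a at 1.08 and 1.23 CPM, and lay between 46.8 and 203 in the others. Perivascular macrophage markers summed to 3.15 to 25 CPM in KO and 3.5 to 10.4 in WT, with 0 of 6 below 0 and a median log2 difference of 0.93. Of 8 thalamic neuron markers 8 were below 0, with a median of -0.56. Microglial markers were at 331 to 519 CPM in KO and 330 to 526 in WT, and no marker of these 4 lists was called by edgeR. The part of these cells in the nigral values was not tested.

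Single libraries were high for the 6 general interferon genes in several sets outside striatum, and leaving them out lowered the differences to a varying degree. Leaving out the highest library of a group lowers its mean in any case. The summed CPM of Ifit1, Ifit3, Isg15, Irf7, Bst2 and Oasl2 in the HET library numbered 5 of 12-week substantia nigra was 171.0, against a median of 24.4 over the 15 libraries of that region and age, 7.02 times that median. Ifit3 was at 86.0 CPM there and at 8.61 to 20 in the 14 others. Oasl2 was at 38.9 CPM against 2.33 to 5.68, Ifit1 at 17.4 against 1.86 to 3.48, and Irf7 at 14.8 against 1.56 to 2.8. Ifi27 was at 27.5 CPM against 18.7 to 26, so that it stood out far less than the other members. Of 52 type I effectors 46 were higher there than in all 14 others, as were 15 of 16 interferon-gamma induced GTPases, while the microglial marker sum of 526 CPM lay within the 345 to 659 of the others. With this library, HET differed from WT by 1.43 for Oasl2, 1.04 for Irf7, 0.93 for Ifit1 and 0.89 for Ifit3 on the log2 scale, and without it by -0.36, -0.05, -0.28 and -0.24. The list median was 0.15 with it and -0.03 without it.

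Among the KO libraries, number 932 was 3.87 times the median of its set in 4-week substantia nigra, 3.16 times in somatosensory cortex and 2.27 times in thalamus, and 1.23, 1.12 and 0.964 times in prefrontal cortex, hippocampus and striatum. Number 163 was at 2.45 times in hippocampus and number 4 at 2.65 times in 12-week hippocampus. Whether a number names the same animal in each region is not stated in the labels. Without KO 932, Ifit3 in somatosensory cortex changed from 0.57 to 0.13 and Ifi27l2a from 1.21 to 0.33 in log2 difference from WT, and the list median from 0.10 to 0.01. Without KO 4, Ifi27l2a in 12-week hippocampus changed from 1.49 to -0.05 and Oasl2 from 0.65 to 0.22. Ifit1 there changed from 0.92 to 0.60, Irf7 from 0.76 to 0.41 and the list median from 0.10 to 0.06. Without KO 163, Isg15 in 4-week hippocampus changed from 0.05 to -0.65 and the list median from 0.09 to -0.02. In striatum KO 932, KO 163 and KO 4 were at 0.964, 1.2 and 1.28 times the median.

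**Figure D4:**
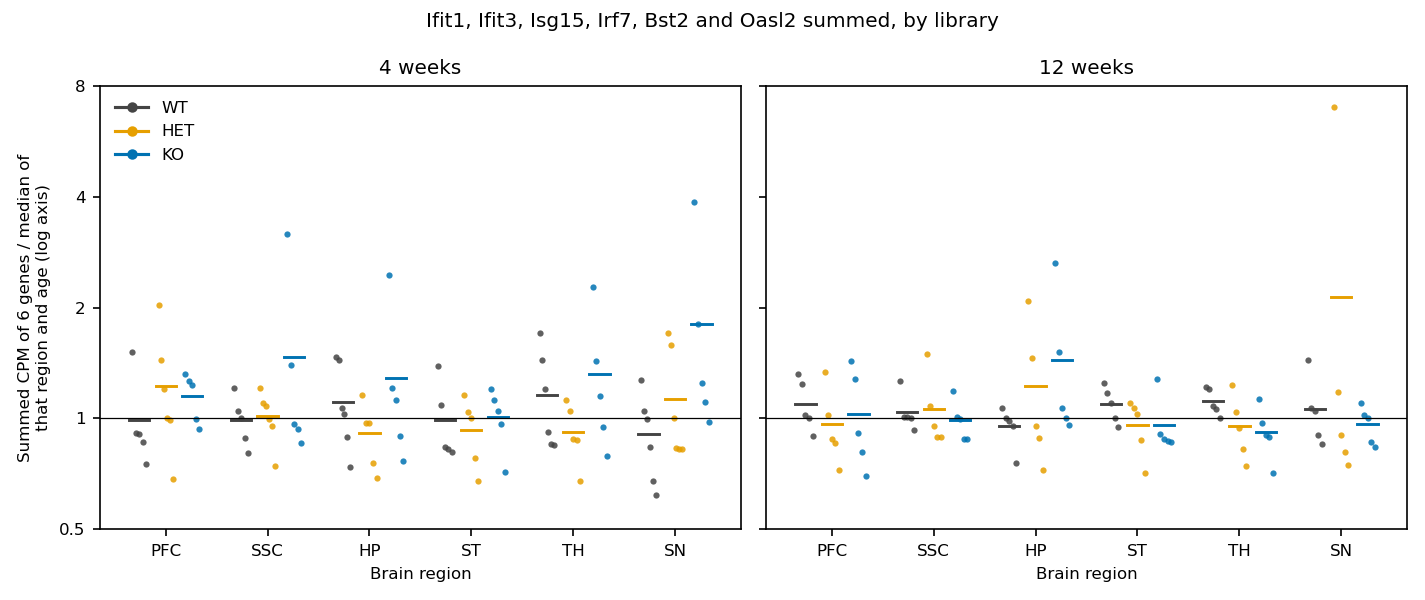
Summed CPM of Ifit1, Ifit3, Isg15, Irf7, Bst2 and Oasl2 per library, divided by the median of its region and age (y axis, log scale), by region (x axis) and genotype, with points for libraries and bars at group means. The highest library, HET 5 of 12-week substantia nigra, lies at 7.02 times the median, while the striatal KO 932, KO 163 and KO 4 lie at 0.964, 1.2 and 1.28 times.

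In the remaining KO comparisons the medians of the list genes were 0.16 in prefrontal cortex and 0.02 in thalamus at 4 weeks. Without the libraries that stood apart the thalamic median was 0.12, with 29 of 118 below 0 against 51 of 118, and Ifit1 there was at 0.93 ± 0.33 in place of 0.37 (edgeR adjusted p = 0.688). At 12 weeks they were -0.06 in prefrontal cortex and substantia nigra, -0.04 in somatosensory cortex, -0.03 in thalamus and 0.10 in hippocampus. Over all 12 comparisons, edgeR called 3 of 1428 tests of list genes in KO, against 0.644% of all tests. These 3 were the striatal ones named above. DESeq2 called 16 in KO, among them 5 in 4-week substantia nigra and 2 in 4-week thalamus (Gbp5 and Igtp). The nigral and thalamic ones were all higher. In HET, 0 of 1428 were called by edgeR, against 0.00521% of all tests, with 77 at an unadjusted p under 0.05 and 0 by DESeq2. The HET comparison shares its WT libraries with the KO comparison, and its list medians lay between -0.15 in 12-week thalamus and 0.28 in 4-week substantia nigra.

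Whether the KO effect differed between 12 and 4 weeks was tested within each region. Over all genes 0% were called (0 of 98669), and 0 of 46 member tests were called by edgeR and 0 by DESeq2, with 2 at an unadjusted p under 0.05. The smallest adjusted p, 0.55, was that of Ifi27l2a in substantia nigra, whose difference of effects was -3.07 ± 0.94 on the log2 scale.

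In WT mice the members differed in their regional levels. Each region was compared with the mean of the other 5. Sample numbers recur across regions, the labels do not say that they name the same animal, and the fit leaves any such sharing out. Of the 7 members chosen by function, 35 of 84 tests were called, 18 higher and 17 lower, against 54% of all gene tests. The WT striatal libraries are an arm of the comparison that chose Ifi27l2a and Ifi27l2b, so their regional levels are given as a description, with no test. Striatum was the region with the highest Ifi27l2a and Ifi27l2b and the lowest or next to lowest mean of each of the other 7. At 4 weeks WT striatum was at 0.569 ± 0.198 CPM of Ifi27l2a and the next region, prefrontal cortex, at 0.213 ± 0.0812. At 12 weeks they were at 0.961 ± 0.318 and 0.322 ± 0.174. The striatal libraries did not overlap those of the next region at either age, and the other regions overlapped their neighbours in the order. At 4 weeks the hippocampal WT 914 (0.487 CPM) and thalamic WT 913 (0.482) did reach into the striatal range. The log2 difference from the other regions was 1.84 at 4 weeks and 2.16 at 12 weeks, and over all genes 26.8% and 32.5% were called higher in striatum. Ifi27l2b was at 0 counts in every WT library of the other regions. Against the level that 3 counts over the group would give, its striatal mean was at least 45.8-fold higher at 4 weeks (somatosensory cortex) and at least 119-fold higher at 12 weeks.

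The other members went the other way in WT striatum. At 4 weeks Ifit3 (-0.96 ± 0.22, edgeR adjusted p = 0.00051), Bst2 (-0.73 ± 0.24, adjusted p = 0.0116), Oasl2 (-0.66 ± 0.24, adjusted p = 0.0187) and Ifi27 (-0.46 ± 0.19, adjusted p = 0.0423) were lower than in the mean of the other regions, when 26.1% of all genes were. At 12 weeks Ifit1, Bst2, Irf7, Ifit3, Oasl2 and Ifi27 were lower, with log2 differences of -0.75, -0.72, -0.70, -0.52, -0.52 and -0.46 (edgeR adjusted p between 4.8e-05 and 0.00466), when 34.7% of all genes were. Isg15 was not called at either age, at -0.52 ± 0.25 (edgeR adjusted p = 0.0817) and -0.29 ± 0.20 (adjusted p = 0.211). At 4 weeks it was called lower with scaling by library totals, and also with the sample number as a block. The 4-week call of Ifi27 was lost on leaving out any one of 11 of the 33 WT libraries, among them all 5 striatal ones (WT 42, WT 92, WT 142, WT 913 and WT 914), prefrontal WT 23 and WT 92, hippocampal WT 42 and WT 914, somatosensory WT 92 and thalamic WT 914 (edgeR adjusted p between 0.0502 and 0.113). That of Oasl2 was lost without the striatal WT 92, WT 142 or WT 914 (between 0.0524 and 0.0699) and that of Bst2 without WT 42 (0.0524). Without all the libraries that stood apart, an alternative chosen after seeing the data, these 4 genes were still called lower, at -0.72 for Ifit3, -0.66 for Bst2, -0.61 for Oasl2 and -0.38 for Ifi27, and the difference of Ifi27l2a was 2.56. The ranges of striatum overlapped those of the neighbouring region in the order for each of these genes.

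Elsewhere in the WT brain, hippocampus stood out for Bst2, at 3.24 ± 1.32 CPM at 4 weeks and 3.8 ± 0.918 at 12 weeks, with differences of 1.17 ± 0.19 (edgeR adjusted p = 1.2e-05) and 1.19 ± 0.15 (adjusted p = 9.0e-08) from the mean of the other regions. It also stood out for Ifi27 at 12 weeks, at 32.1 ± 4.36 CPM against 22.5 ± 3.21 in the next region, substantia nigra, without overlap. Substantia nigra was highest for Ifit3, at 9.7 ± 3.27 and 14.4 ± 3.57 CPM, differences of 0.98 ± 0.18 (edgeR adjusted p = 2.0e-05) and 0.97 ± 0.11 (adjusted p = 4.5e-09). Thalamus was highest for Isg15, at 1.11 ± 0.272 and 1.15 ± 0.106 CPM, with differences of 0.54 ± 0.21 (edgeR adjusted p = 0.0364) and 0.50 ± 0.18 (adjusted p = 0.0166). The 4-week call was lost on leaving out any one of 18 of the 33 WT libraries, 5 of them thalamic (WT 42, WT 92, WT 142, WT 913 and WT 914; edgeR adjusted p between 0.0514 and 0.13 over the 18), and the 12-week call without the thalamic WT 5 (adjusted p = 0.054). Without the libraries that stood apart, which left 3 of 6 WT libraries in thalamus, Ifit1 (-0.93 ± 0.36) and Ifit3 (-0.65 ± 0.21) were called lower there at 4 weeks (edgeR adjusted p = 0.0301 and 0.0119), against -0.31 and -0.21 with all libraries, not called. Ifit1 and Irf7 were highest in somatosensory cortex at 4 weeks, at 2.23 ± 0.501 and 1.98 ± 0.79 CPM, and in substantia nigra at 12 weeks, at 2.75 ± 0.417 and 2.24 ± 0.522 CPM. Oasl2 was highest in hippocampus at 4 weeks (3.25 ± 0.866 CPM) and in prefrontal cortex at 12 weeks (3.79 ± 1.02 CPM). Apart from Ifi27 in 12-week hippocampus, each of these highest regions overlapped the next.

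**Figure D5:**
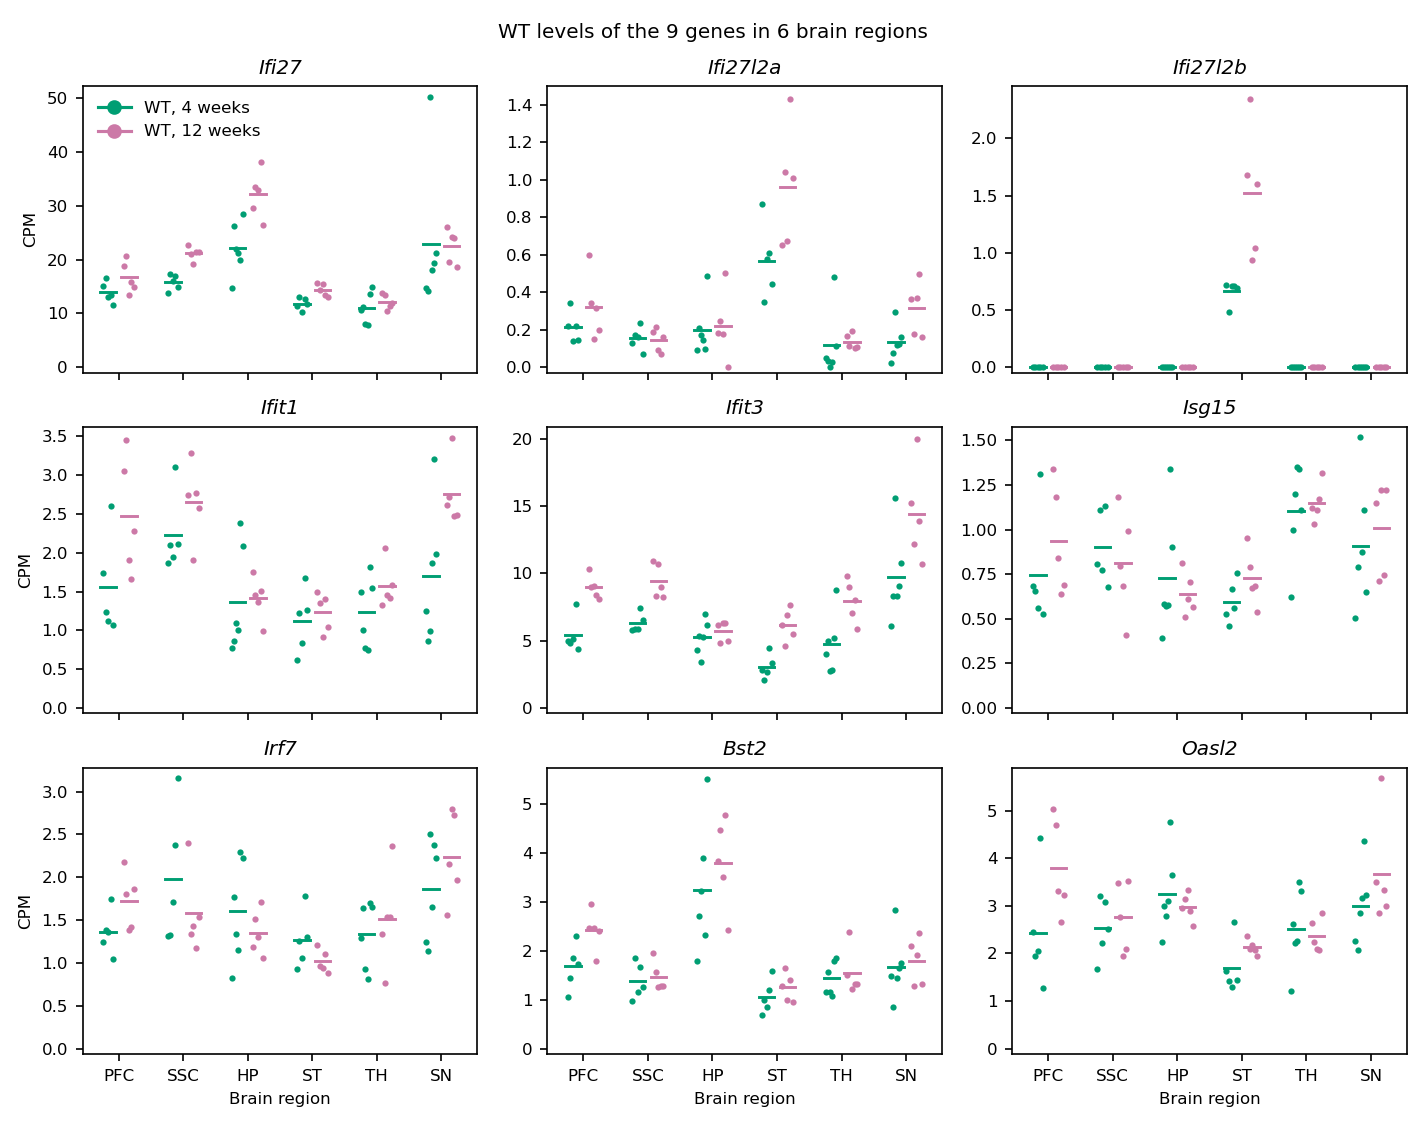
Level of each member in CPM (y axis) in WT libraries of the 6 regions (x axis) at 4 and 12 weeks, with each point a library and bars at group means. Ifi27l2b is at 0 outside striatum, and Ifit3 and Oasl2 are low there.

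Per kilobase of the longest transcript, levels can be set beside each other between genes. In WT striatum at 4 and 12 weeks, Ifi27 was at 12.1 and 14.8 CPM per kilobase, Ifit3 at 1.76 and 3.54, Bst2 at 1.34 and 1.58, Ifi27l2a at 1.23 and 2.07, and Ifi27l2b at 0.605 and 1.39. Irf7 was lowest at 0.39 and 0.314. By this measure the chosen pair in WT lay within the range of the 6 general interferon genes of the same tissue.

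From 4 to 12 weeks in WT, 6 of 43 member tests were called and all 6 were higher at 12 weeks, against 13.6% of all gene tests in either direction. The count leaves out Ifi27l2a and Ifi27l2b in striatum, where the WT libraries served to choose them. Age and any processing batch cannot be told apart in this design. Ifit3 rose in striatum from 3.06 ± 0.923 to 6.18 ± 1.19 CPM, a log2 difference of 1.04 ± 0.22 (edgeR adjusted p = 0.00783), without overlap between the ages, and 6.18% of genes were called higher there. It also rose in prefrontal cortex by 0.73 ± 0.15 (edgeR adjusted p = 0.00813, where 6.01% of genes were called higher) and in somatosensory cortex by 0.57 ± 0.11 (adjusted p = 0.00298, where 10.6% were). Ifi27 rose in somatosensory cortex by 0.41 ± 0.08 (edgeR adjusted p = 0.00208), in striatum by 0.32 ± 0.09 (adjusted p = 0.0388) and in hippocampus by 0.55 ± 0.15 (adjusted p = 0.0312, where 5.75% of genes were called higher). Ifi27l2b in striatum was at 0.662 ± 0.103 CPM at 4 weeks and 1.52 ± 0.565 CPM at 12 weeks, a description with no test. In thalamus and substantia nigra, where 7.48% and 1.88% of genes were called higher, no member was called. The calls of Ifi27 in striatum and hippocampus were lost on leaving out single libraries. In striatum it was lost without any one of the 12-week WT 1, WT 2, WT 3 and WT 4 or the 4-week WT 42, WT 142 and WT 914 (edgeR adjusted p between 0.0677 and 0.094), and in hippocampus without the 12-week WT 2, WT 3 or WT 4 or the 4-week WT 142 or WT 913 (between 0.0575 and 0.0789). Without the 4-week libraries that stood apart, 10 of 44 member tests were called, all higher at 12 weeks. The added ones were Ifit3 in thalamus (1.20 ± 0.24, edgeR adjusted p = 0.0123) and substantia nigra (0.77 ± 0.19, adjusted p = 0.0199), Ifit1 in thalamus (0.91 ± 0.23, adjusted p = 0.0272) and Ifi27l2a in substantia nigra (1.63 ± 0.50, adjusted p = 0.0476), and the striatal differences were 0.89 for Ifit3 and 0.33 for Ifi27.

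Across all 186 libraries, after subtracting each group's mean of log2(CPM + 1), the 6 general interferon genes varied together, with Pearson correlations of 0.63 to 0.78 between pairs. Ifi27l2a correlated with them at 0.54 to 0.66, Ifi27 at 0.29 to 0.48 and Ifi27l2b at -0.12 to 0.04. Ifi27l2b was at 0 in 152 of the 156 libraries outside striatum. It could hardly vary with any gene there, so its values over all libraries cannot be set against those of Ifi27l2a. Over the 20 WT and HET striatal libraries, where both are expressed, the correlation of Ifi27l2a with Ifi27l2b was 0.32. In these 20 libraries Ifi27l2a correlated with the 6 general interferon genes at -0.21 to 0.12 and Ifi27l2b at -0.41 to 0.26. Pairs of the 6 correlated there at 0.16 to 0.77. The libraries of a set share their region, age and depth range, and the single high libraries described above weigh in these values. Of 14083 other genes with a mean of at least 1 CPM, those whose 36 group means were most like Ifi27l2a by Spearman correlation were Ptpn6 (0.759) and Hpgd (0.757). The group means of Ifi27l2a include the striatal KO and WT values that chose it, so this likeness partly describes those values. Ifi27 was most like Acta2 (0.918) and Hmox1 (0.917), Ifit1 like Irgm1 (0.883) and B2m (0.874), and Ifit3 like Ifit3b (0.93) and Spin2c (0.91). Isg15 was most like Pgk1 (0.855) and Lias (0.849), Irf7 like H2-D1 (0.834) and Rtp4 (0.832), Bst2 like Sema3b (0.928) and Ifitm3 (0.919), and Oasl2 like Cubn (0.911) and Tap1 (0.901).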

How the data were processed

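RNA from dissected frozen brain tissue was sequenced after TruSeq Stranded mRNA library preparation from 200 ng of total RNA, per the labels' protocols. The authors deposited one table of expected counts (estimates, often with decimals) that covers 28338 genes in 186 libraries. Salmon and the build mm10 are named in the submitters' processing notes, with neither a version nor an annotation. Every column was matched to a sample (0 were left over), and groups were taken from the labels alone. In 16 of the 4-week libraries at most 5.55% of values were whole numbers, against at least 17.3% elsewhere.

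Counts were rounded and, for each region and age, the 3 genotypes were fitted together in edgeR 4.0.16 (R 4.3.3) with TMM scaling, filterByExpr by group, glmQLFit and glmQLFTest, and p-values were adjusted over all genes tested by the Benjamini-Hochberg method. Regions, ages and differences of effects were tested in the same way in one fit each with 1 coefficient per group. The SE was taken as the absolute log2 difference over the root of the F statistic. CPM is scaled by TMM over all libraries. DESeq2 1.42.0 and limma 3.58.1 served for alternatives: other scaling, no filter, 2 genotypes only, a replicate block, a covariate for the libraries with few whole values, leaving out the libraries that stood apart, and leaving out each library in turn. Leaving out the libraries that stood apart was added for the WT and difference tests after seeing the data. The edgeR and DESeq2 steps were tested on simulated data first. No pair of libraries within a group (390 pairs) came under a chi-square of 7.97 per degree of freedom, so each library counted as its own sample.

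The members, the interferon lists and the marker lists were chosen with earlier results of these data known. Named besides the members are every list gene called in KO or HET (at most 10 per comparison), the 3 list genes per list and age with the widest change in KO striatum at an average log2 CPM of at least 1 (of which a part is printed), and the 2 genes most like each member (for Ifi27l2b not reported here).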

Additional observations from a re-analysis of the deposited data

Results flagged for a closer look

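Among 297 combinations of a member and a group in which the member was above 0 somewhere, 42 held a library far from the others. The gap was over Dixon's 95% critical value, 41 on the high side and 1 on the low side, in 22 libraries. For independent values with a normal spread, chance would flag about 1 in 20 combinations. Members that vary together in skewed values, as here, do not meet that condition. All values are CPM.

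The HET library numbered 5 of 12-week substantia nigra stood apart for Ifit3 (86.0), Oasl2 (38.9), Ifit1 (17.4), Irf7 (14.8), Bst2 (8.12), Isg15 (5.7) and Ifi27l2a (0.868). The HET library numbered 5 of 12-week thalamus stood apart for Oasl2 (3.27) and Irf7 (2.29). KO 932 at 4 weeks stood apart in substantia nigra for Ifit3 (33.7), Ifit1 (9.72), Irf7 (7.47) and Ifi27l2a (2.5), in somatosensory cortex for Ifit3 (19.2), Oasl2 (8.45), Ifit1 (7.64) and Isg15 (3.82), and in hippocampus for Ifi27 (27.6). KO 163 stood apart in 4-week hippocampus for Ifit3 (13.1), Oasl2 (7.78), Irf7 (4.75), Isg15 (1.86) and Ifi27l2a (0.404), and KO 4 in 12-week hippocampus for Oasl2 (9.74) and Ifi27l2a (2.28). Apart from the hippocampal KO 932, flagged for Ifi27 alone, these libraries were high for several interferon genes together. The labels do not say that libraries with the same number come from the same animal.

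Among WT libraries, WT 913 at 4 weeks stood apart in prefrontal cortex for Ifit3 (7.75) and Isg15 (1.31), in somatosensory cortex for Ifit1 (3.1), in striatum for Oasl2 (2.67) and in thalamus for Ifi27l2a (0.482). WT 3 stood apart in 12-week substantia nigra for Oasl2 (5.68) and Ifit1 (3.48), WT 914 in 4-week hippocampus for Ifi27l2a (0.487), WT 2 in 12-week thalamus for Bst2 (2.38), and the nigral library labelled WT 92, whose Akap11 level went against its label, for Ifi27 (50.2). In 4-week striatum WT 92 was the low one for Ifi27l2b (0.478, against 0.695 to 0.714 in the other WT libraries), and it carried high cortical markers.

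The remaining high values were Ifi27 in KO 2 of 12-week prefrontal cortex (23.6) and somatosensory cortex (26.5), Ifi27l2a in HET 1 of 12-week prefrontal cortex (0.581) and Ifit1 in HET 162 of 4-week prefrontal cortex (4.97). Ifi27l2b in HET 2 of 12-week hippocampus (0.018) and in KO 12 of 4-week thalamus (0.0208) rests on 1 count each.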

How the results depend on the processing

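Members called were 0 in KO and 0 in HET under all 8 other settings and with any one library left out, and 0 for the KO effect by age and for striatum against the other regions. With the chosen pair included, WT regions gave 39 to 46 calls (41 in the fit described; 38 to 43 leaving out one library). WT age gave 6 to 8 (7 in that fit; 6 to 10 leaving out one library), but 11 without the 4-week libraries that stood apart, an alternative added after seeing the data. List genes called in KO, 3 as reported, were 1 with library totals, 1 with 2 genotypes only, 16 with DESeq2, 5 with the replicate block (at 12 weeks in striatum Ifngr1 and Lgals3bp higher and Tbk1 lower) and 1 to 8 leaving out one library. The list median in 4-week striatum, 0.01, was -0.19 without the libraries that stood apart. Among the single genes followed through these settings, no direction of a called result reversed. The WT regional calls outside striatum were followed only in part. The cause of these shifts was not tested.

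Over all genes, KO striatum at 4 weeks had 516 called, 341 with library totals, 174 with 2 genotypes only and 978 with DESeq2, and at 12 weeks 691, against 1031 with DESeq2 and 992 with the replicate block, which called 0 members. At 12 weeks the deviations of same-numbered libraries correlated at -0.28 to 0.75, over 0.1 in 62 of 90 pairs and not in every pair, so the numbers were not taken as a pairing. That 49 of 90 libraries correlated best with their own number in the other genotype is a hint from the data of a pairing across genotypes. The 12-week tests other than the replicate block leave any such pairing out. Depth limits Ifi27l2a and Ifi27l2b in KO striatum, where at most 10 counts stood behind each value, and Ifi27l2b in the other regions, where at most 1 did.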
